A study of Homo sapiens with 3 samples.

Results

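The 10 genes described here are the core of the Notch pathway in human cells: the 4 receptors NOTCH1, NOTCH2, NOTCH3 and NOTCH4, the 5 ligands JAG1, JAG2, DLL1, DLL3 and DLL4, and the target gene HES1. They were chosen by symbol, through the Ensembl identifiers of GENCODE release 44, and all 10 were found among the 62754 genes measured. RNA-seq was performed on MCF10A, an immortalized and non-tumorigenic line of breast epithelial cells. The cells carried the empty vector of the retroviral Tet-One inducible system, were selected with puromycin, and were harvested with neither doxycycline nor any other treatment, 27 h after seeding. This condition was measured in 3 replicates, and nothing in the sources says whether they came from separate cultures. There is no second group, so the values below are levels and the spread between replicates, and any p-value compares these libraries only. Values are given in TPM, a measure of transcript abundance that corrects read numbers for transcript length and is scaled so that each replicate sums to 1000000.

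Notch receptors are single-pass membrane proteins that are activated by ligands on a neighbouring cell. Pulling by the bound ligand lets an ADAM protease and then gamma-secretase cut the receptor, and the freed intracellular domain enters the nucleus, where it joins the DNA-binding protein RBPJ and a Mastermind coactivator to switch on target genes such as HES1. In the breast epithelium the pathway is known for its part in the choice between basal and luminal cell fates.

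From the TPM values and transcript lengths, the replicates held between 11166546 and 15446347 reads on genes, the lowest number being in replicate 3. The reads of the small RNA gene RN7SL1 took 15.1% of all TPM in replicate 3, against 4.93% and 5.66% in replicates 1 and 2. The log2 ratio of replicate 3 to replicate 1 had a median of -0.25 across the 8804 genes that averaged 10 TPM or more, and the ratio to replicate 2 a median of -0.24. All 6 basal markers and all 4 general epithelial markers lay above 1 TPM, led by KRT5, the keratin of basal cells, at 6612 ± 890 TPM (SD, n = 3). Of markers of other cells, 1 of 5 endothelial genes (PECAM1, 1.77 TPM), 2 of 5 fibroblast and mural genes (DCN, 9.05 TPM, and COL1A1) and 1 of 5 leukocyte genes (CD14, 1.96 TPM) reached 1 TPM. In bulk RNA, few cells with much of a transcript and many cells with little of it cannot be told apart.

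Of the members, 6 were expressed above the cutoff of 1 TPM that was used throughout. NOTCH1, NOTCH2, JAG1, JAG2, DLL3 and HES1 reached it by their means and in every replicate, while NOTCH3, NOTCH4, DLL1 and DLL4 stayed below it in every replicate. The 6 of 10 compare with 24.9% of all 62754 genes and with 56.7% of the 20046 protein-coding genes, so that the share of members was near that of protein-coding genes. All 10 genes had at least 1 read in each replicate. The 5 members above 10 TPM lay between 33.2 and 76.4 TPM, and no member lay between 2.06 and 33.2 TPM.

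**Figure D1:**
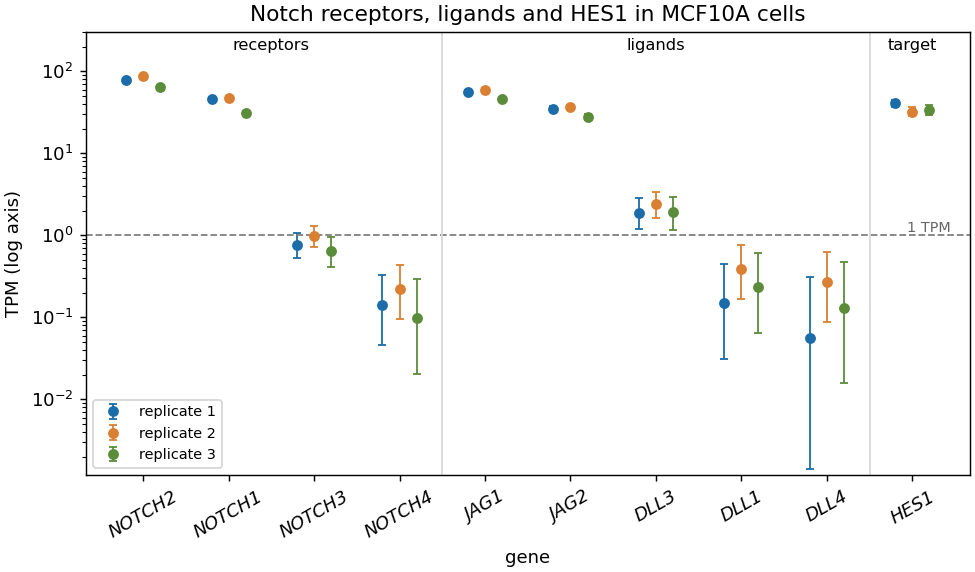
Level of the 10 genes in each of the 3 replicates, in TPM on a log axis, with bars for the exact 95% Poisson interval of the reads and a dashed line at 1 TPM. NOTCH1, NOTCH2, JAG1, JAG2 and HES1 sit between 27.9 and 86.7 TPM, DLL3 near 2 TPM, and the other 4 genes below the line with wide intervals.

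Among the receptors, NOTCH2 had the highest level and NOTCH1 the next. NOTCH2 (ENSG00000134250, 34 exons on the minus strand of chr1:119911553-120100779, hg38) measured 78.2, 86.7 and 64.4 TPM in replicates 1, 2 and 3, a mean of 76.4 ± 11.3 TPM (SD, n = 3). That is above 89.3% of protein-coding genes, and replicate 3 was the lowest. NOTCH1 (ENSG00000148400, 34 exons on the minus strand of chr9:136494433-136546048), the receptor whose activated form was first known from T-cell leukaemia, measured 46.2, 46.9 and 31.4 TPM, a mean of 41.5 ± 8.75 TPM. Replicates 1 and 2 lay close together and replicate 3 below both. NOTCH2 exceeded NOTCH1 1.86-fold, with log2 ratios of 0.76, 0.89 and 1.04 in the 3 replicates, a mean of 0.89 ± 0.14. The sign was the same in all 3 replicates and the mean larger than its SD, which is what is called told apart here. An exact sign-flip test on 3 replicates cannot go below p = 0.25, so no such ratio can be called significant.

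NOTCH3 and NOTCH4 were read at a low level. NOTCH3 (ENSG00000074181, 33 exons on the minus strand of chr19:15159038-15200995), best known from vascular smooth muscle, measured 0.768, 0.982 and 0.645 TPM, from 35, 46 and 25 reads. The exact Poisson 95% intervals of replicates 1 and 2 reached above 1 TPM, to 1.07 and 1.31 TPM, while that of replicate 3 ended below it, at 0.952 TPM. NOTCH1 exceeded NOTCH3 51.9-fold (log2 ratio 5.70 ± 0.18). NOTCH4 (ENSG00000204301, 30 exons on the minus strand of chr6:32194843-32224067), a receptor of endothelial cells, rested on 5, 8 and 3 reads, which gave 0.141, 0.220 and 0.0996 TPM. The widest of its intervals ran from 0.0949 to 0.433 TPM, so all 3 replicates were below 1 TPM beyond counting error. The 5 endothelial markers summed to between 1.94 and 2.36 TPM per replicate and CDH5, which defines that cell type, had 0 reads. Their part in the NOTCH4 value was not tested.

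Reads of NOTCH2 can be shared with its partial copies, which lie elsewhere on chromosome 1 and encode short secreted proteins made from the first exons of the receptor. Of the 11376 stretches of 50 bases in the canonical NOTCH2 transcript, 4.86% also occurred in a transcript of another gene, all of them the NOTCH2NL genes or the genes, mostly of the NBPF family, that overlap those. The reverse share was 93.1% for NOTCH2NLA, 92.7% for NOTCH2NLB, 79.3% for NOTCH2NLC and 90.3% for NOTCH2NLR. Of these copies NOTCH2NLC was the highest, with 1.02, 1.67 and 0.665 TPM, and only its mean of 1.12 TPM reached the cutoff. NOTCH2NLA measured 0.545, 1.26 and 0.561 TPM, and NOTCH2NLB 0.582, 0.944 and 0.826 TPM. NOTCH2NLR was listed at 0 in replicates 1 and 2 and at 0.428 TPM in replicate 3. As counted, the 4 copies summed to between 2.15 and 3.88 TPM per replicate, far below NOTCH2 itself. Reads came out as whole numbers, but whether shared reads were dropped or given to 1 gene is not given in the sources used here. The gap to NOTCH2 therefore holds for counted reads only.

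Of the ligands, the Jagged genes were high and the Delta-like genes low. JAG1 (ENSG00000101384, 26 exons on the minus strand of chr20:10637684-10673999) measured 55.8, 59.7 and 46.1 TPM, a mean of 53.9 ± 7.01 TPM (SD, n = 3). JAG2 (ENSG00000184916, 26 exons on the minus strand of chr14:105140982-105168824), a ligand prominent in stratified and basal epithelia, measured 35.1, 36.5 and 27.9 TPM, a mean of 33.2 ± 4.65 TPM. Both were highest in replicate 2 and lowest in replicate 3. Their ratio hardly moved: JAG1 was 1.63-fold higher, with log2 ratios of 0.67, 0.71 and 0.73.

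DLL3 was the only Delta-like gene above 1 TPM. DLL3 (ENSG00000090932, 9 exons on the plus strand of chr19:39498895-39508481), a ligand that acts inside the cell as an inhibitor of Notch and is abundant in neuroendocrine tumours, measured 1.88, 2.38 and 1.92 TPM from 23, 30 and 20 reads. Its lowest interval bound was 1.17 TPM, so each replicate was above the cutoff beyond counting error. It lay 16.1-fold below JAG2. Beside it, the neuroendocrine marker INSM1 had 0 reads in all 3 replicates, CHGA had 0, 0 and 3 reads, and SYP 0, 11 and 5 reads (0, 0.594 and 0.326 TPM). NCAM1, which other cells also express, measured 1.49 TPM and was the only one of these to reach the cutoff. Their part in the DLL3 level was not tested.

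DLL1 (ENSG00000198719, 11 exons on the minus strand of chr6:170282206-170306565), a ligand with roles in somite formation and stem cells, measured 0.151, 0.392 and 0.237 TPM from 3, 8 and 4 reads. DLL4 (ENSG00000128917, 11 exons on the plus strand of chr15:40929340-40939073), the ligand of sprouting blood vessels, measured 0.0556, 0.270 and 0.131 TPM from 1, 5 and 2 reads. DLL1 was above DLL4 in all 3 replicates (log2 ratio 0.95 ± 0.46), but their Poisson intervals overlapped in each, for example 0.0312 to 0.441 TPM against 0.00141 to 0.310 TPM in replicate 1. Both genes were below 1 TPM beyond counting error, and their order was not resolved at this depth. These intervals cover counting error only. The methods name no molecular identifiers to remove PCR copies, and such copies would make the intervals too narrow.

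The overlap of other genes with the members' exons was small. DLL1 shares 370 bases (9.79% of its canonical transcript) with FAM120B on the opposite strand, which measured 18.5 TPM on average, and without knowledge of strand in the counting, reads there cannot be given to either gene. JAG2 shares 8.12% with the noncoding gene ENSG00000257622 on the same strand, which had 0 reads. JAG1 shares 5.15% with the noncoding gene ENSG00000270792 on the opposite strand, which had 0, 2 and 4 reads. NOTCH4 shares 1.45% with GPSM3 on the same strand, which measured 0.555 TPM. NOTCH1, NOTCH3, DLL3, DLL4 and HES1 shared no stretch of 50 bases with another gene.

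Summed over the family, receptors were above ligands. The 4 receptors summed to 125, 135 and 96.5 TPM in replicates 1, 2 and 3, and the 5 ligands to 93.0, 99.3 and 76.3 TPM. Their ratio was 1.35, 1.36 and 1.27, a mean of 1.32 ± 0.0503 (SD, n = 3), and it does not depend on how TPM was scaled. NOTCH2 made up 64.5% ± 2.15 and NOTCH1 34.7% ± 2.17 of the receptor sum. JAG1 made up 60.2% ± 0.238, JAG2 37% ± 0.649 and DLL3 2.31% ± 0.260 of the ligand sum. The NOTCH2 share was 62.4%, 64.3% and 66.7% in the 3 replicates, a wider range than the 60.0% to 60.5% of JAG1. Set in 1 order over all members, 6 of 9 neighbouring pairs were told apart. The exceptions were NOTCH1 with HES1, HES1 with JAG2, and NOTCH4 with DLL4. DLL1 with NOTCH4 was told apart by this rule, but their Poisson intervals overlapped in each replicate. In replicate 1 these were 0.0312 to 0.441 TPM for DLL1 and 0.0459 to 0.330 TPM for NOTCH4, so that order was not resolved.

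**Figure D2:**
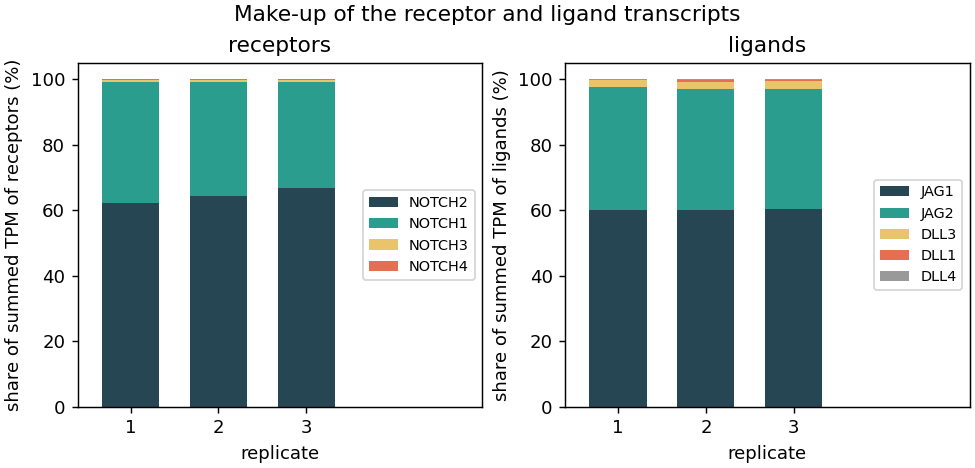
Stacked bars of each receptor's percent of the summed receptor TPM and each ligand's percent of the summed ligand TPM, 1 bar per replicate. NOTCH1 and NOTCH2 fill 99.2% of the receptor bars and JAG1 and JAG2 97.2% of the ligand bars on average.

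HES1 (ENSG00000114315, 4 exons on the plus strand of chr3:194136148-194138732) encodes a basic helix-loop-helix repressor that Notch activates in many tissues. It measured 40.7, 32.3 and 33.9 TPM from 337, 275 and 239 reads, a mean of 35.6 ± 4.45 TPM (SD, n = 3) and above 77.8% of protein-coding genes. It was the 1 member that was not highest in replicate 2. The log2 ratio of HES1 to NOTCH1 was -0.18, -0.54 and 0.11, so the pair changed order between replicates. HES1 is also regulated by other signals, and its transcript level alone is no measure of Notch activity.

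HES1 took most of the RNA of its gene family. It made up 58.5%, 54.0% and 57.3% of the summed TPM of the 10 HES and HEY genes, all encoding related repressors. HES4 followed with 11.9, 12.1 and 10.1 TPM, a log2 difference to HES1 of 1.65 ± 0.20. HES6, which counteracts HES1 in neurons, measured 7.71 ± 0.591 TPM, HES2 4.52 ± 0.783 TPM, and HES7, part of the segmentation clock, 3.15 ± 0.813 TPM. HEY1, a Notch target in the heart and vessels, had 0.366 ± 0.141 TPM. HES5, the classic Notch target of neural progenitors, had 1, 0 and 1 reads, while HES3, HEY2 and HEYL had 0 in all replicates. In replicate 3, the shallowest, the exact Poisson 95% intervals of these 0 counts ended at 1.17 TPM for the short HES3, 0.314 TPM for HEY2 and 0.202 TPM for HEYL. In that replicate HES3 was therefore not below 1 TPM beyond counting error.

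**Figure D3:**
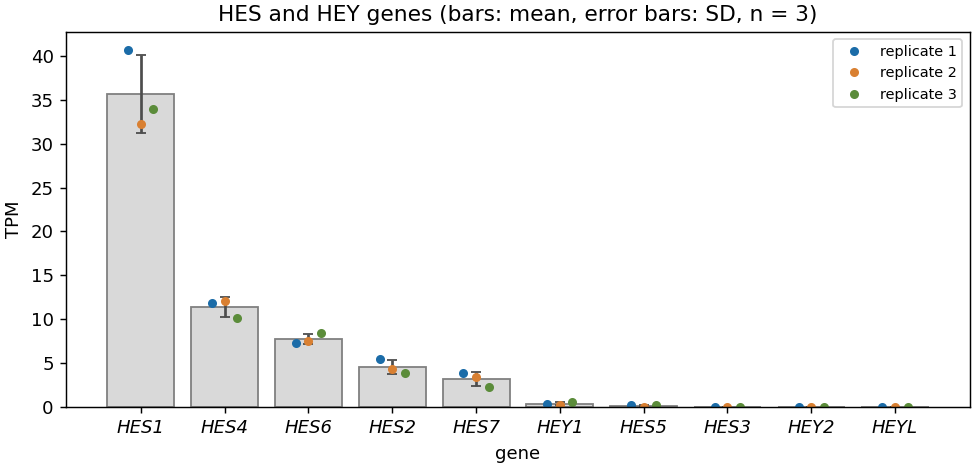
Mean TPM of HES1 and the 9 other HES and HEY genes (bars from 0, with SD over 3 replicates as error bars and the replicates as points). HES1 stands at 35.6 TPM and HES4 at 11.4 TPM, while HES3, HEY2 and HEYL are at 0.

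The promoters of HES1, HES4 and HES5 are shown because they hold the letters of the RBPJ motif and belong to family members with very different RNA levels (35.6, 11.4 and 0.104 TPM). Each line gives bases -95 to -41 before the transcription start on the gene's own strand, from RefSeq on GRCh38.p14, with GTGGGAA and, as TTCACAC, the reverse complement of the related GTGTGAA in capitals. They lie at chr3:194136053-194136107 (plus strand), chr1:1000138-1000192 (minus strand) and chr1:2530304-2530358 (minus strand).
HES1: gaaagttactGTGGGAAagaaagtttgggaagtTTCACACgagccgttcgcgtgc
HES4: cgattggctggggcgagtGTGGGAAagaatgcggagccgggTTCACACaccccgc
HES5: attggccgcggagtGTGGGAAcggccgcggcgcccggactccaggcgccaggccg

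In the HES1 and HES4 promoters the capitals face each other with 16 bases between them, at -85 to -79 and -62 to -56 in HES1 and at -77 to -71 and -54 to -48 in HES4. HES5 has GTGGGAA at -81 to -75 and again, on the other strand, at -224 to -218, outside the stretch shown, but no facing pair with this spacing. Among the 35116 promoters in the RefSeq table, which run from 250 bases before the start to 50 after it, a facing pair with 15 to 17 bases between (either form, GTGGGAA or GTGTGAA, followed by the reverse complement of either) was found in 2, which are HES1 and HES4. That pattern was defined after these sequences were seen, so its rarity is a description. GTGGGAA on either strand was in 6.25% of all promoters, GTGTGAA in 3.0% and the shorter TGGGAA, which GTGGGAA contains, in 24.0%.

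Of the members, 8 of 10 were in the promoter table (DLL1 and DLL3 were not), and 1 of these 8, HES1, held GTGGGAA. Within the HES and HEY family, 5 of the 9 genes in the table held it: HES1, HES4, HES5, HEY2 and HEYL. The last 3 of these had at most 1 read per replicate. The N box CACNAG, bound by HES repressors, was in 38% of all promoters and in 6 of the 8 members (NOTCH1, NOTCH2, NOTCH3, NOTCH4, DLL4 and HES1). The E box CACGTG was in 7.26% of promoters and in none of these 8. The shares of all promoters count single promoters, whereas a gene was counted here if any of its listed promoters held the letters. A match of letters is not a bound site.

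The rest of the pathway was described with 83 further genes in lists by role. By their means 67 reached 1 TPM, 16 did not, and 7 had 0 reads in every replicate. Of all 20046 protein-coding genes 56.7% reached 1 TPM, which is the share to set beside this count and those per list below. The median was 15.4 TPM. All 9 genes for the proteases that cut the receptor reached the cutoff. APH1A, a gamma-secretase subunit, measured 167 ± 14.4 TPM, FURIN, which makes the first cut in the secretory pathway, 92.6 ± 12.1 TPM, and the gamma-secretase subunit nicastrin (NCSTN) 74.1 ± 9.24 TPM. PSEN2, the lower of the presenilins at 3.44 TPM, is uncertain, since an overlapping gene on the same strand (ENSG00000288674) holds 98.5% of its canonical transcript.

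Among enzymes that attach sugars to the receptor, 7 of 8 reached the cutoff. POFUT1, which adds O-fucose, measured 65.3 ± 6.90 TPM, EOGT 42.6 ± 4.92 TPM and XXYLT1 41.7 ± 4.70 TPM. LFNG, the Fringe enzyme that shifts receptors towards Delta-like ligands, measured 13.6 ± 2.66 TPM, and MFNG, at 0.571 TPM, was the gene below the cutoff. LFNG, MFNG, PSEN2, RBPJ and NRARP fall outside the rule for named genes and were chosen after their values were seen.

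On the ligand side, 5 of 6 genes for ligand endocytosis reached the cutoff. The ubiquitin ligase MIB1, which ligands need in order to pull on the receptor, measured 37.7 ± 4.14 TPM, and the epsins EPN2 and EPN1 20.9 ± 1.71 and 17.6 ± 2.39 TPM. NEURL1 had 0 reads. Of 6 atypical ligands 3 reached the cutoff, and DNER, an EGF-repeat protein known from neurons, stood at 56.8, 52.9 and 51 TPM. Its log2 ratio to JAG1 was 0.02, -0.18 and 0.15, so it was not told apart from the highest canonical ligand. DLK2 measured 6.24 ± 1.21 TPM and EGFL7, a vascular protein, 2.65 ± 0.110 TPM, whereas DLK1 and CNTN1 had 0 reads.

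**Figure D4:**
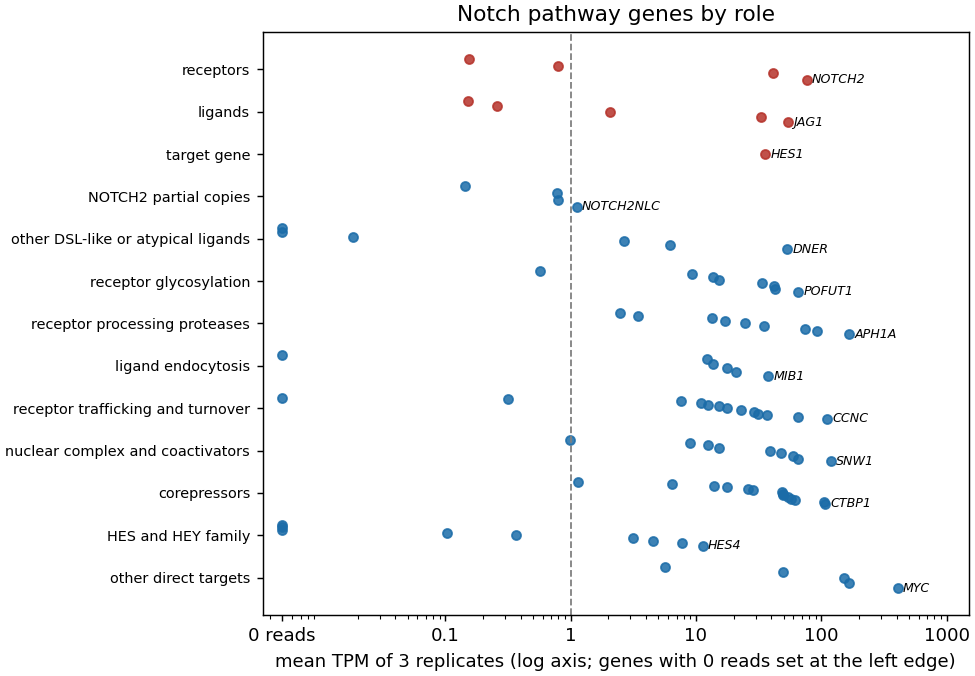
Mean TPM of the members and of the 83 further pathway genes by role, on a log axis, 1 point per gene, with a dashed line at 1 TPM and genes with 0 reads at the left edge. All 9 receptor proteases and all 14 corepressors lie at or above the line, while the HES and HEY list has 5 of 9 genes below it.

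Of 9 genes for the nuclear complex and its coactivators 8 reached the cutoff. RBPJ itself measured 47.4 ± 4.73 TPM, and its log2 ratio to NOTCH1 was 0.19, -0.08 and 0.52. SNW1 (120 ± 17.4 TPM), MAML1 (65.5 ± 5.84 TPM) and the acetyltransferase KAT2A (59.6 ± 10.2 TPM) were the highest of the list. The Mastermind gene MAML3 lay on both sides of the cutoff, at 1.05, 1.03 and 0.913 TPM. All 14 corepressor genes reached it, led by CTBP1 (108 ± 13.9 TPM), HDAC1 (105 ± 2.26 TPM) and RITA1 (62.2 ± 9.27 TPM), which exports RBPJ from the nucleus. TLE2, of the Groucho family, measured 0.748, 1.52 and 1.2 TPM. Some of these genes overlap others, which makes their levels uncertain. EPN2 shares 46.4% of its canonical transcript with B9D1 and CTBP1 24.3% with CTBP1-AS, both on the opposite strand. KAT2A shares 13% with ENSG00000267261 on its own strand. MAML3 shares 3.68% with MGST2 on the opposite strand, which measured 48.2 TPM on average, so its place at the cutoff is uncertain too.

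Of 13 genes for receptor trafficking and turnover 11 reached the cutoff. CCNC, the cyclin of the kinase that marks the intracellular domain for destruction, measured 111 ± 5.21 TPM, the ubiquitin ligase NEDD4 65.2 ± 4.89 TPM, and NUMB, an inhibitor handed to 1 daughter cell at asymmetric division, 36.7 ± 4.82 TPM. DTX1, a Deltex gene and itself a Notch target in lymphocytes, had 0 reads. All 5 other direct targets reached the cutoff. MYC (406 ± 72.6 TPM), CCND1 (167 ± 21.3 TPM) and CDKN1A (152 ± 15 TPM) were high, all of them genes with many other regulators. NRARP, a feedback inhibitor of the Notch complex, measured 5.63 ± 1.26 TPM. CCNC shares 15.8% of its canonical transcript with TSTD3 and CCND1 11.7% with LTO1, both on the opposite strand, so these levels are uncertain too.

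Replicates of the abundant members differed by more than counting error. For each of the 15802 genes that had 15 reads or more, a chi-square test set the reads against equal TPM, and p-values were adjusted by the Benjamini-Hochberg method. It called 54.3% of those genes, and 5 of the 9 members tested, a share near that background. Called by the chi-square test were NOTCH2 (adjusted p = 1.45e-38), NOTCH1 (9.07e-36), JAG1 (6.22e-11), JAG2 (1.30e-07) and HES1 (0.0215). DLL4, with 8 reads in all, was not tested, and for NOTCH3, NOTCH4, DLL1 and DLL3 the adjusted p lay between 0.28 and 0.69.

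Fewer genes were called after scaling. With each replicate scaled by its median ratio over the genes of at least 10 TPM, the same test called 31.2% of genes and 4 of the 9 members. In this chi-square test NOTCH1 (adjusted p = 2.10e-11) and NOTCH2 (5.05e-10) were far below 0.05, JAG1 (0.0422) and HES1 (0.0413) narrowly, and JAG2 (0.163) was no longer called. On this scale NOTCH1 measured 43.6, 44.7 and 35.2 TPM, still lowest in replicate 3, and NOTCH2 73.8, 82.7 and 72.2 TPM, highest in replicate 2. The scaled level of HES1 was 38.4, 30.8 and 38.1 TPM, lowest in replicate 2.

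Some calls depended on single libraries, for the members as for all genes. Without replicate 3, the chi-square test called NOTCH2 and HES1, both as deposited (adjusted p = 4.82e-06 and 0.0254) and after scaling. There the same chi-square test did not call NOTCH1 (adjusted p = 0.764 as deposited). Beside these members, 21.3% of all 14980 genes tested were called as deposited and 21.1% after scaling. Left without replicate 1 or 2, the same chi-square test did not call HES1 (adjusted p = 0.681 and 0.0637 as deposited). NOTCH1, NOTCH2, JAG1 and JAG2 stayed called in both settings as deposited. In either case it called 46.7% of all genes tested as deposited. Without replicate 2, NOTCH1 was the only member called after scaling, beside 8.93% of all genes tested. NOTCH1 had log2 ratios of -0.56 and -0.58 for replicate 3 over replicates 1 and 2, against medians of -0.25 and -0.24 over all genes of at least 10 TPM. For genes at or above 1 TPM, the SD of log2(TPM + 1) had a median of 0.20 over 6 members and 0.16 over 11360 protein-coding genes. This difference was not tested. Of the 53 further pathway genes that averaged 10 TPM or more, 48 (90.6%) were lowest in replicate 3, beside 82.8% of all 8804 genes of that level.

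**Figure D5:**
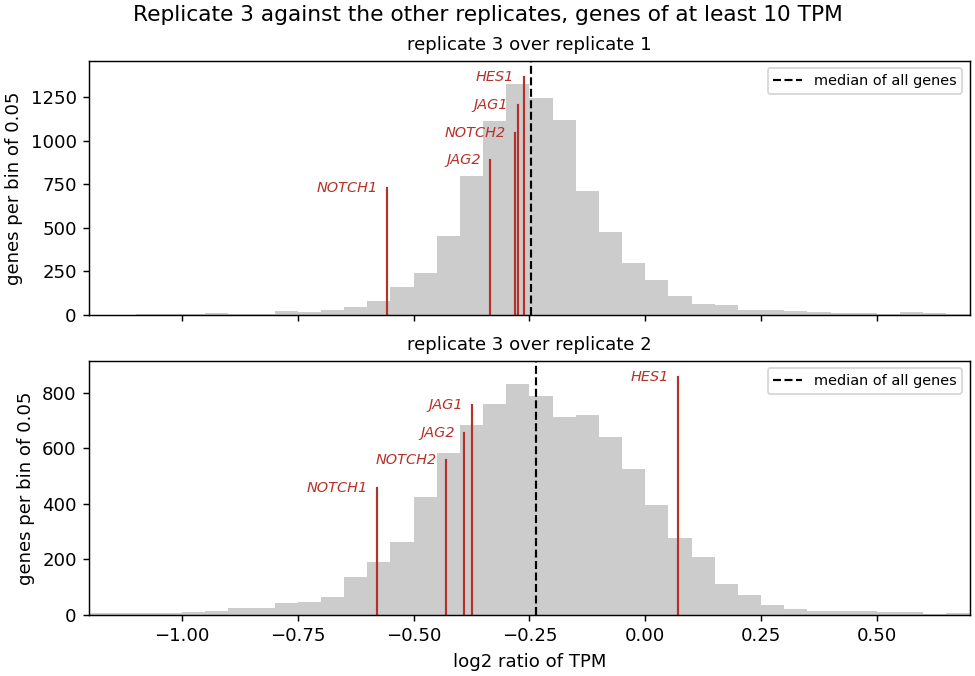
Histograms of the log2 ratio of replicate 3 over replicate 1 and over replicate 2 for the 8804 genes that averaged 10 TPM or more, with the median as a dashed line and the 5 members of that level as red lines. NOTCH1 lies farthest to the left of the 5, at -0.56 and -0.58, and HES1 farthest to the right, at -0.26 and 0.07.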

How the data were processed

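RNA of untreated MCF10A cells was sequenced in 3 replicates after depletion of ribosomal RNA. Per the methods, the authors used Seq2science for mapping to hg38 and for counting, and deposited TPM values for 62754 genes, not pooled and with no filter described. The submitters' processing notes name STAR, fastp and MultiQC. Which annotation was counted, and whether strand was used, is not given in the sources used here.

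TPM values were used as deposited. Multiplied by the length of the longest transcript in GENCODE release 44 (with 1 base less per exon) and divided by the smallest step, 100% of values in each replicate were whole to within 0.01 reads, giving 15273329, 15446347 and 11166546 reads if the smallest step is 1 read. Of the genes, 62700 were found in that annotation. Intervals are exact Poisson 95% intervals, also for counts of 0. Replicates of 1 group were described by mean and SD, and their reads were compared by a chi-square test over genes with at least 15 reads. Pairs of replicates differed far beyond sampling noise (mean chi-square per gene 6.50 to 23.1), so none was counted as a duplicate.

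Named genes are the members and, of each pathway list, the 3 highest, those on both sides of 1 TPM, those with 0 reads, and all NOTCH2 copies and HES and HEY genes, with every gene whose exons overlap a member's. The members and lists were chosen with earlier results of these data known. Promoter letters came from the RefSeq table (GRCh38.p14, 250 bases before to 50 after the start), which held 8 of 10 members and 70 of 83 pathway genes. Of the marker genes, 1 is not reported here. A planned comparison of protein sequences was not run here. Alternatives covered cutoff, pseudocount, length, scaling, filters and each replicate left out. Scripts were tested on simulated data. Software was Python 3.11.15 with scipy 1.17.1, pandas 2.3.3, numpy 2.4.6 and, for figures, matplotlib 3.10.9.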

Additional observations from a re-analysis of the deposited data

How the results depend on the processing

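The count of 6 members at or above 1 TPM became 7 at a cutoff of 0.5 TPM, through NOTCH3, and was 6 under every other alternative run. The 67 further pathway genes ranged from 65 to 71. By sign and SD, the 7 neighbouring pairs within receptors and within ligands were told apart with canonical lengths, with medians and with each replicate left out, although the counting intervals of DLL1 and DLL4 overlap. The log2 ratio of receptors to ligands, 0.40, ranged from 0.38 to 0.44. With the canonical transcript as length for all genes, all 10 levels fell, to between 0.813 and 0.949 of the deposited value. The fall was more than 1 SD for 4 of them, NOTCH2, JAG1, JAG2 and HES1. The canonical and longest transcripts of these 4 have the same length, so their own length did not change. With TPM rescaled to protein-coding genes, 4 levels rose by more than 1 SD, by up to 1.15-fold. Leaving out 1 replicate moved low levels most: DLL4 went from 0.152 to 0.0931 TPM without replicate 2 and to 0.20 TPM without replicate 1. The median SD of the members, 0.197, was 0.131 with that rescaling and lay between 0.0865 and 0.263 with 1 replicate left out, lowest without replicate 3. The 5 members whose replicates differed beyond counting error were 2 to 4 with 1 replicate left out. The share over all genes tested was then 21.3% to 46.7%, against 54.3% with all 3 replicates. After scaling by the median ratio, an alternative set in advance, the 4 members were 1 to 3 with 1 replicate left out. The share over all genes tested was then 8.93% to 27.3%, against 31.2% with all 3 replicates. These scaled settings with 1 replicate left out were added after seeing the data. No paired analysis was possible because there is only 1 condition. Depth limits NOTCH4, DLL1 and DLL4, which had 16, 15 and 8 reads in all.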
